A study of Mus musculus with 6 samples.

Results

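The genes described here are the 3 D-type cyclins (Ccnd1, Ccnd2 and Ccnd3), their kinase partners (Cdk4 and Cdk6) and 5 inhibitors of cyclin-dependent kinases (Cdkn1a, Cdkn1b, Cdkn1c, Cdkn2a and Cdkn2c) in mouse pancreatic islets. Every array probe annotated with one of these symbols was taken, which gave 25 probes for 10 of the 21946 named genes and for 25 of the 45281 probes on the array. The islets were those of BALB/c mice that had received either B29, which is a monoclonal antibody to the protease inhibitor serpin B13, or a control IgG antibody. Mice in both arms had 4 intraperitoneal injections of 25 µg (100 µg in all) on alternate days beginning at 2 weeks of age, and islets were taken at 5 weeks of age. The islets were separated by size (diameters below 100 µm, of 100 to 200 µm and above 200 µm), and 1 array was run per size and antibody, so that B29 had 3 arrays and IgG had 3. The labels do not say how many mice were pooled on an array or whether the classes of an arm shared mice, so p-values measure only the spread between these 6 arrays.

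D-type cyclins are made in response to growth factors and activate Cdk4 and Cdk6, which phosphorylate the retinoblastoma protein, release E2F transcription factors and so let a cell pass from the growth phase into DNA synthesis. Inhibitors of the INK4 family (here Cdkn2a and Cdkn2c) bind the kinases and keep the cyclins off, while those of the CIP/KIP family (Cdkn1a, Cdkn1b and Cdkn1c) bind cyclin and kinase together. In mice, Ccnd2 and Cdk4 are needed for the growth of beta cell mass after birth, and the Cdkn2a locus limits beta cell proliferation as animals age.

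Levels are the authors' log2 intensities, on which every array had a median of 4.29. A probe counted as detected on an array where its detection p, the share of control probes at least as bright, was under 0.05. The lowest detected level lay between 4.47 and 4.54 on the 6 arrays. Probes detected on at least 2 of 6 arrays were tested, which kept 16774 probes of the array and 16 of the 25 member probes, of 8 of the 10 genes. Between 32.7% and 35.1% of all probes were detected per array. Of 6 beta cell markers, 5 or 6 were detected on each array, and of 10 markers of acinar cells, the enzyme-secreting cells around the islets, 9 or 10 were. The median level of the acinar markers was 12.7, 11.4 and 6.66 with B29 in order of islet size, against 12.7, 10.9 and 10.2 with IgG. In bulk islet RNA, fewer cells of a type and less RNA per cell cannot be told apart.

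No member gene passed the test of B29 against IgG over the 3 classes, whose additive limma fit called 1 of 16774 probes (0.00596%) at a Benjamini-Hochberg adjusted p under 0.05. Cdkn1a had the lowest fitted log2 ratio of the 8 tested genes (-0.38, SE 0.13) and Ccnd3 the highest (0.30, SE 0.13). These were also the genes with the same sign of the ratio in all 3 classes: 1 of 8 was higher, against 12.6% of 10530 tested genes, and 1 of 8 was lower, against 13% of tested genes. With median centring 0 were higher and 2, Ccnd2 and Cdkn1a, lower, and the shares of all tested genes were not counted with that scaling. Adjusted p over all probes ran from 0.966 to 0.999 for the 8 genes, and 2 had an unadjusted p under 0.05, as did 783 probes (4.67%) of the whole array.

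**Figure D1:**
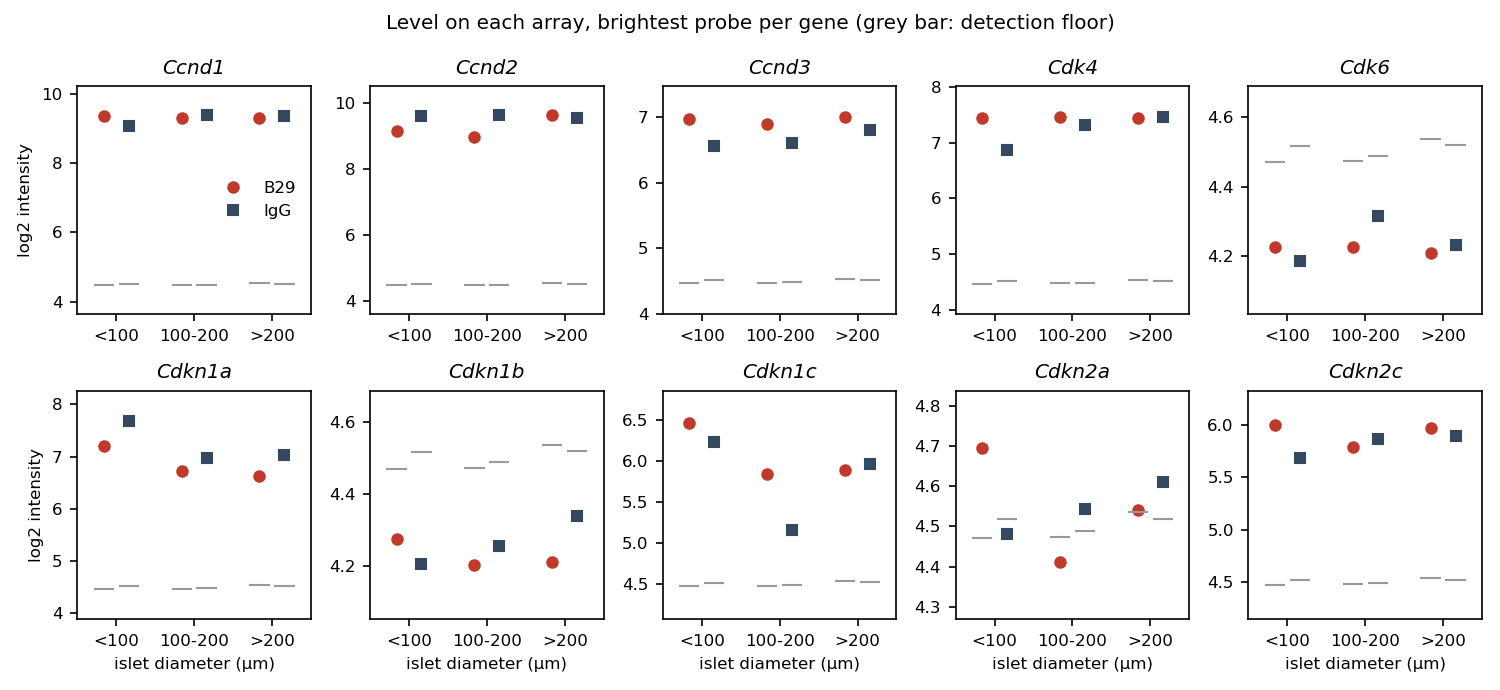
Log2 intensity (vertical axis, a separate range in each panel that does not start at 0) of the brightest probe of each of the 10 genes by islet diameter class, with 1 point per array (B29 circles, IgG squares) and the detection floor of each array as a grey bar. Cdk6 and Cdkn1b lie under the floor on all 6 arrays, Cdkn2a lies close to it, and Cdkn1a is lower with B29 in each class.

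Ccnd1, the cyclin D1 gene, was measured by 3 tested probes that did not move together. Its brightest probe (ILMN_1221503) stood at 9.36, 9.33 and 9.32 with B29 in order of islet size, against 9.08, 9.40 and 9.38 with IgG. The IgG array under 100 µm was lower than the other 5, and the groups overlapped (fitted log2 ratio 0.05, SE 0.14, limma adjusted p = 0.992). The second probe, designed to the same transcript record, stood at 9.40, 9.30 and 9.27 with B29, against 9.12, 8.91 and 8.89 with IgG. On that probe every B29 array was above every IgG array (fitted log2 ratio 0.35, SE 0.13), but it did not pass either (limma adjusted p = 0.966, unadjusted p = 0.0230). Among the brightest probes of 10530 tested genes 4.31% showed this order, and the share over all tested probes was not counted. Probe 3 of the gene had ratios of -0.12, 0.21 and -0.15 and a fitted ratio of -0.02 (SE 0.14). Over the 6 arrays, Pearson's r between probes was -0.12 for probes 1 and 2, -0.61 for probes 1 and 3 and 0.25 for probes 2 and 3, so the direction of Ccnd1 depended on the probe read.

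Ccnd2, the D cyclin with the best known role in beta cell proliferation, was dimmer with B29 in the 2 smaller classes, while its sign in the largest class depended on the scaling. Its brightest probe (ILMN_2700166) stood at 9.15, 8.96 and 9.63 with B29, against 9.60, 9.64 and 9.54 with IgG. The IgG levels were alike, the B29 arrays under 100 and at 100 to 200 µm were the lowest of the 6, and the groups overlapped through the B29 array over 200 µm. B29 was 1.37-fold lower under 100 µm and 1.60-fold lower at 100 to 200 µm (log2 ratios -0.45 and -0.68), and the ratio over 200 µm was 0.09, against -0.29 with median centring in place of quantile normalization. The second probe stood at 8.18, 7.80 and 8.79 with B29, against 8.52, 8.36 and 8.19 with IgG, and gave ratios of -0.34, -0.56 and 0.60. Both probes thus had negative ratios in the smaller classes and a positive one over 200 µm, with r = 0.83 between them over the 6 arrays. Probe 3, designed to a separate cDNA record, had ratios of 0.00, 0.07 and -0.09, and probe 4 was detected on 1 array. The fitted log2 ratio over the classes was -0.35 (SE 0.17, 95% interval -0.73 to 0.04, limma adjusted p = 0.966) for the brightest probe. It was -0.18 without the pair of arrays at 100 to 200 µm and -0.56 without the pair over 200 µm, and the limma adjusted p ran from 0.468 to 0.9996 over the alternatives.

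Ccnd3, the cyclin D3 gene, was brighter with B29 in each class on its brightest probe (ILMN_3131063). That probe stood at 6.98, 6.91 and 7.002 with B29, against 6.57, 6.61 and 6.81 with IgG. Every B29 array was above every IgG array, as in 454 of 10530 tested genes (4.31%), and 0 members showed the opposite order, against 4.96% of tested genes. The log2 ratios were 0.41, 0.30 and 0.19 in order of islet size, with a fitted ratio of 0.30 (SE 0.13, 95% interval 0.01 to 0.60, limma adjusted p = 0.966). With median centring the ratio over 200 µm was -0.07, where the median gene stood at -0.14. A second probe, designed to another transcript record, was detected on 2 IgG arrays and was not above background on any B29 array. Its ratios pointed the other way in each class (-0.48, -0.06 and -0.08), but each rests on a B29 level not above background. Over the 6 arrays r between probes 1 and 2 was -0.63. Probe 3 was not detected. The start windows of Ccnd3 are shown because it was the member with the highest fitted ratio. They run from 250 bases before to 50 bases after 2 annotated starts on the plus strand of GRCm38.p6 (RefSeq), 5′ to 3′, and capitals mark GC boxes (GGGCGG on either strand) and CCAAT boxes (CCAAT on either strand).
Ccnd3, upstream start, chr17:47504801-47505100 (+): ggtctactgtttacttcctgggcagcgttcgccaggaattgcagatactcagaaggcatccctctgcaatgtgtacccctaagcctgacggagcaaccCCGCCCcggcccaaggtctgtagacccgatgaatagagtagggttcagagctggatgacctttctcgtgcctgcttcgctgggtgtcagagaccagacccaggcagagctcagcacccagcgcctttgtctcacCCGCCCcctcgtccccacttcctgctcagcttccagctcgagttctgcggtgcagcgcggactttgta
Ccnd3, downstream start, chr17:47593217-47593516 (+): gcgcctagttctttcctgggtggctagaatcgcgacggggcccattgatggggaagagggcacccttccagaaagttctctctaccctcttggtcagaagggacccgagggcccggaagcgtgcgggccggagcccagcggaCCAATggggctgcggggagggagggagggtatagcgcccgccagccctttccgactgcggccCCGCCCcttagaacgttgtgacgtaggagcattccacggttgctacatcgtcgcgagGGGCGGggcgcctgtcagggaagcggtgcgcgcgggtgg
Each window held 2 GC boxes, and the downstream one held 1 CCAAT box as well. A GC box was present in 35.7% and a CCAAT box in 37.4% of the 32851 windows of all genes, so these matches are common and describe the sequence only.

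Cdk4, the kinase that D cyclins activate in islets, had its widest difference between the antibodies in small islets. Its brightest probe (ILMN_2690976) stood at 7.45, 7.45 and 7.45 with B29, against 6.87, 7.31 and 7.47 with IgG. The B29 arrays were alike in every class, and the IgG array under 100 µm was the low one, so that the groups overlapped. The log2 ratios were 0.58, 0.14 and -0.02, the first just under the 1.5-fold line at 0.585 on this scale, and the fitted ratio was 0.24 (SE 0.15, limma adjusted p = 0.970). Without the pair of arrays under 100 µm it was 0.0623. The second probe had ratios of -0.34, 0.15 and -0.15, and r between the probes was -0.48 over the 6 arrays. Cdk6, the other partner of D cyclins, had 1 probe, which was detected on no array (levels 4.19 to 4.32, detection p 0.14 to 0.657). No ratio is given for it, since all its levels lay under the floor.

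Cdkn1a encodes p21, a CIP/KIP inhibitor induced by p53 and by other stress and differentiation signals. Its brightest probe (ILMN_2634083) stood at 7.20, 6.73 and 6.62 with B29, against 7.68, 6.98 and 7.03 with IgG. B29 was lower within every class, by 1.39-fold, 1.19-fold and 1.33-fold in order of islet size, while the groups overlapped across classes. The means were 6.85 ± 0.31 with B29 and 7.23 ± 0.39 with IgG (SD over 3 classes). The fitted log2 ratio was -0.38 (SE 0.13, 95% interval -0.67 to -0.08), with an unadjusted p of 0.0180 and a limma adjusted p of 0.966. The second probe was lower with B29 in every class too, by less (ratios -0.10, -0.06 and -0.16). Probe 3 was detected with both antibodies under 100 µm only, where its ratio was -0.15. Over the 6 arrays r was 0.97 between probes 1 and 2, which varied together.

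The start windows of Cdkn1a are shown because it was the member with the lowest fitted ratio. They cover 250 bases before to 50 after each of 2 annotated starts on the plus strand of GRCm38.p6 (RefSeq), 5′ to 3′, with p53 half-sites and GC boxes on either strand in capitals.
Cdkn1a, upstream start, chr17:29090729-29091028 (+): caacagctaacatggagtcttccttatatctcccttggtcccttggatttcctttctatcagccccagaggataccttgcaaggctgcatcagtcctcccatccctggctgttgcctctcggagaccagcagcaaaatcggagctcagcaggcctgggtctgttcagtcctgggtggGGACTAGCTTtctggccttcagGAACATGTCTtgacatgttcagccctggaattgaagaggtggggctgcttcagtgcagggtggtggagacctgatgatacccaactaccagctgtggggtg
Cdkn1a, downstream start, chr17:29093519-29093818 (+): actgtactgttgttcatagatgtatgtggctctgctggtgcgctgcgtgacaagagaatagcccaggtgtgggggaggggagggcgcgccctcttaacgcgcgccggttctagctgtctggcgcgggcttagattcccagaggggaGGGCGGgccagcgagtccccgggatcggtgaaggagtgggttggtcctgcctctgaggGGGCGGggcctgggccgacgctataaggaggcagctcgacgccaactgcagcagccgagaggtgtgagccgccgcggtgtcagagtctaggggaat
The upstream window held 2 matches to the p53 half-site, and it was the 1 window of the 11 found for the member genes to hold any, against 8.36% of all windows. The downstream window held 2 GC boxes. A STAT motif (TTCNNNGAA, either strand) was in 0 of these 11 windows and in 8.3% of all windows. The 11 windows stand for 7 of the 10 genes, since Ccnd1, Ccnd2 and Cdkn1c had none and were not searched. GC boxes were in 8 of the 11 and CCAAT boxes in 4, against 35.7% and 37.4% of all windows. An E-box (CACGTG) was in 3 of the 11, those of Cdk4, Cdk6 and Cdkn2c, against 7.15% of all windows. A match describes the letters in the window and no more.

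Cdkn1c encodes p57, an imprinted CIP/KIP inhibitor whose maternal copy is lost in focal islet overgrowth in humans. Its 1 probe (ILMN_2708203) stood at 6.45, 5.84 and 5.88 with B29, against 6.22, 5.16 and 5.96 with IgG. The IgG array at 100 to 200 µm was the lowest of the 6, and the B29 arrays of the 2 larger classes were alike. B29 was 1.59-fold higher at 100 to 200 µm (log2 ratio 0.67), with ratios of 0.23 and -0.07 in the smallest and largest classes. The ratio of 0.67 was 0.30 without background correction and 0.36 with normexp at an offset of 50, both under the 1.5-fold line. The fitted ratio was 0.28 (SE 0.16, 95% interval -0.10 to 0.65, limma adjusted p = 0.969). It was 0.0782 without the pair of arrays at 100 to 200 µm and 0.45 without the pair over 200 µm. Cdkn1b, which encodes p27, a CIP/KIP inhibitor of quiescent cells, had 3 probes and none was detected on any array (levels 4.11 to 4.34). These probes do not show whether the transcript is absent from islets.

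Of the INK4 members, Cdkn2c was detected on all 6 arrays with its brightest probe, and Cdkn2a lay close to the detection floor. Cdkn2c, which encodes p18, stood at 6.00, 5.79 and 5.97 with B29, against 5.69, 5.87 and 5.90 with IgG, on its brightest probe (ILMN_1228366). The groups overlapped, and only the smallest class had a ratio above 0.1 in size (0.32, with -0.08 and 0.07 in the larger classes). The fitted ratio was 0.10 (SE 0.14, limma adjusted p = 0.976), and the second probe was detected on 1 array. Cdkn2a, whose locus encodes p16 and, in another reading frame, the p53 activator p19Arf, was detected with 1 of 3 probes and on 4 of 6 arrays. That probe (ILMN_1227342) stood at 4.70, 4.41 and 4.54 with B29, against 4.48, 4.54 and 4.61 with IgG, close to the detection floor. The groups overlapped, and neither antibody group was the higher one (fitted ratio 0.00, SE 0.14, limma adjusted p = 0.999). The other 2 Cdkn2a probes, designed to another transcript record, were not detected.

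**Figure D2:**
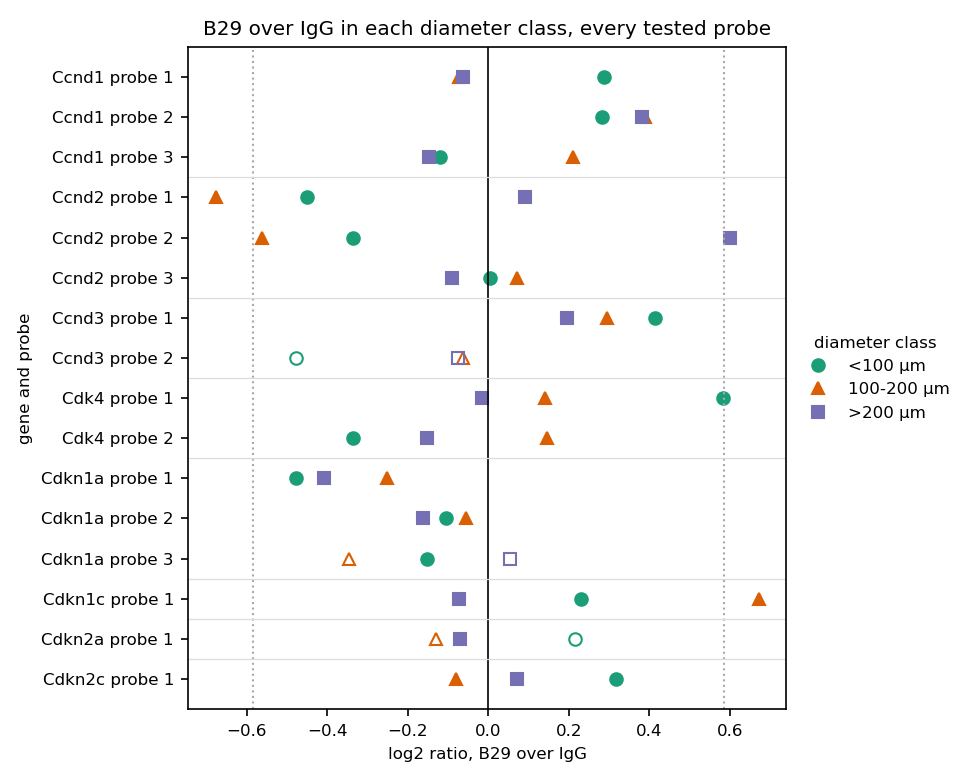
Log2 ratio of B29 over IgG (horizontal axis) in each diameter class for the 16 tested probes of the 8 tested genes, with 1 point per class (1 array against 1) and dotted lines at 1.5-fold in either direction. Open points include a level not above background on at least 1 of the 2 arrays. Probes 1 and 2 of Cdkn1a lie left of 0 in all classes, and so does probe 2 of Ccnd3, whose points are all open. Probe 1 of Ccnd3 and probe 2 of Ccnd1 lie right of 0 in all classes (with median centring the Ccnd3 probe 1 point over 200 µm is at -0.07). The first 2 probes of Ccnd2 lie on both sides (with median centring the Ccnd2 probe 1 point over 200 µm is at -0.29).

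Within single classes there was 1 array against 1 and no test. Under 100 µm, 0 of the 8 genes were at least 1.5-fold apart, against 6.51% of tested genes and 6.01% of the probes detected on either array (3.37% higher and 2.64% lower with B29). At 100 to 200 µm, 2 of 8 were past that line, Cdkn1c upward and Ccnd2 downward, against 4.08% of tested genes and 3.66% of probes (2.42% higher and 1.25% lower). Over 200 µm, 0 of 8 were, against 6.7% of tested genes and 6.1% of probes (2.78% higher and 3.32% lower). With median centring each class had 1 gene past the line, Cdk4 (0.67) in the smallest, Cdkn1c (0.80) in the middle and Cdkn1a (-0.67) in the largest. Ccnd2 at 100 to 200 µm was then at -0.57. With that scaling 963 of 17027, 836 of 17011 and 1616 of 16092 probes were past the line in order of islet size. Over 200 µm, 1517 of those probes were lower with B29. Relative to the median gene, Cdkn1a in that class was at -0.52, under the line. Without background correction or with normexp, Ccnd2 at 100 to 200 µm was the 1 gene past it, beside 156 and 211 of 17011 probes in that class. The median ratio of the 8 genes was 0.26, -0.08 and -0.04 in order of islet size, beside 0.00, -0.02 and 0.01 for all 10530 tested genes. The inhibitors did not share a direction: of the 4 tested inhibitors, Cdkn1a had a negative fitted ratio, and Cdkn1c and Cdkn2c positive ones, with Cdkn2a at 0.00.

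**Figure D3:**
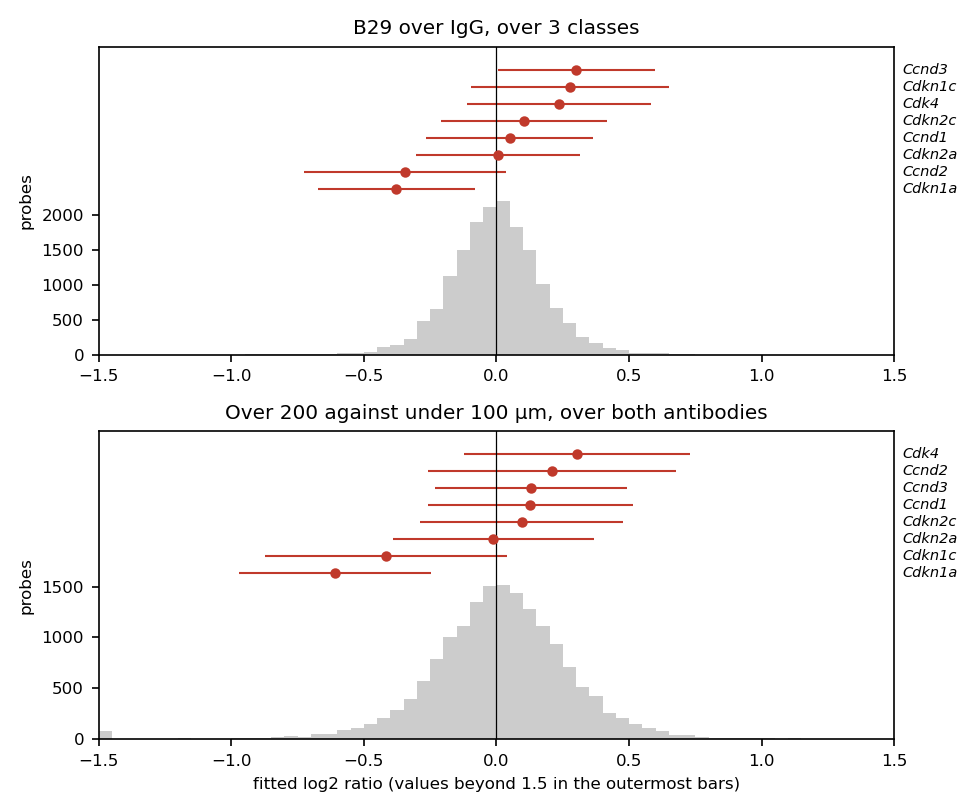
Fitted log2 ratios of the 8 tested genes (points, with 95% intervals from the limma fit) above the distribution of the fitted ratios of all 16774 tested probes (grey bars, vertical axis in probes, with values beyond 1.5 in either direction in the outermost bars), for B29 over IgG in the upper panel and for islets over 200 against under 100 µm in the lower panel. Cdkn1a has the lowest ratio in both panels (-0.38 and -0.61), and no member passed the adjusted threshold in either.

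Islets over 200 µm were next set against those under 100 µm, with the antibody as a factor. No member gene passed, while 89 of 16774 probes (0.531%) did, 73 of them lower in large islets (0.435%). Of the 8 genes 1 had an unadjusted p under 0.05, against 10.4% of probes. Cdkn1a had the lowest ratio of the 8 genes, at -0.61 for islets over 200 against under 100 µm (SE 0.16, 95% interval -0.97 to -0.25, unadjusted p = 0.00443, limma adjusted p = 0.219). Its brightest probe was lower over 200 than under 100 µm by 0.57 with B29 and by 0.64 with IgG on the log2 scale, and at 100 to 200 µm it was lower than under 100 µm by 0.47 with B29 and 0.70 with IgG. Probe 2 had a fitted ratio of -0.26, and probe 3 was detected on both arrays under 100 µm and not above background on either array over 200 µm. Probes 1 and 2 of Cdkn1a were thus brightest in the smallest islets with either antibody, and so were acinar and duct markers. The log2 of the summed acinar signal was 16.3, 15.1 and 12.2 with B29 in order of islet size, against 16.1, 14.9 and 14.6 with IgG. Of 5 duct markers 4 had a probe and 2 were detected on every array, and the median level of the 4 was 5.77, 4.68 and 4.50 with B29, against 5.26, 4.70 and 4.57 with IgG. Krt19 and Cftr were detected on no array, so this median takes in undetected levels. The log2 of the summed duct signal moved less, at 8.57, 8.29 and 8.24 with B29, against 8.43, 8.35 and 8.29 with IgG. The part of acinar and duct cells in the Cdkn1a difference was not tested.

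Cdkn1c was also brighter in the smallest islets. Its fitted ratio was -0.84 for 100 to 200 against under 100 µm (SE 0.20, unadjusted p = 0.00259, limma adjusted p = 0.354), in a comparison that called 14 probes (0.0835%), all lower. In that comparison 2 of the 8 genes had an unadjusted limma p under 0.05, against 5.96% of probes. The other was Cdkn1a (-0.58, SE 0.16, limma adjusted p = 0.488). For over 200 against under 100 µm the Cdkn1c ratio was -0.42 (SE 0.20, limma adjusted p = 0.533). It was -0.15 when the B29 array over 200 µm was left out and -0.68 when the IgG array over 200 µm was. The IgG array over 200 µm stood at 5.96 and that at 100 to 200 µm at 5.16. The acinar median with IgG was 10.9 at 100 to 200 µm and 10.2 over 200 µm. Among the 8 genes, Cdkn1a and Cdkn1c were lower over 200 than under 100 µm with both antibodies (2 of 8, against 24.9% of tested genes), and Cdk4 and Ccnd3 were higher with both (2 of 8, against 30.4%). For Cdk4 the ratios were 0.00 with B29 and 0.60 with IgG, and for Ccnd3 they were 0.02 with B29 and 0.24 with IgG. Between 100 to 200 and over 200 µm, 0 of 8 genes and 0 of 16774 probes passed in limma's test, with 810 probes (4.83%) at an unadjusted p under 0.05, none of them a member.

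**Figure D4:**
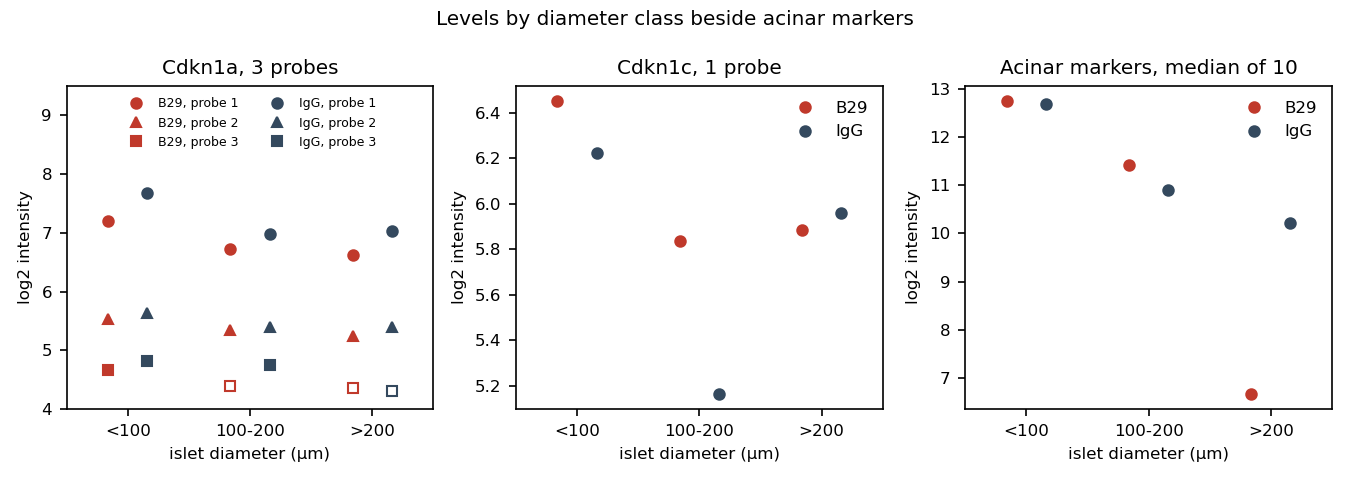
Log2 intensity (vertical axis, not starting at 0) by islet diameter class of the 3 tested Cdkn1a probes (left), the Cdkn1c probe (middle) and the median of 10 acinar markers (right), with 1 point per array, B29 in red and IgG in dark blue, and open points for Cdkn1a levels not above background. Probes 1 and 2 of Cdkn1a are brightest under 100 µm, Cdkn1c with IgG is lowest at 100 to 200 µm (5.16), and the acinar median is lowest over 200 µm with B29 (6.66).

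The genes whose levels over the 6 arrays were most like those of the 2 members with the widest range were looked up among tested genes that ranged at least 0.5 times as far. For Cdkn1c (range 1.29) they were Idh3a (Pearson's r = 0.99), a subunit of mitochondrial isocitrate dehydrogenase, Napepld (0.97), a phospholipase that makes lipid amides, and Lcmt1 (0.96), a methyltransferase of a protein phosphatase, out of 2819 genes. Idh3a and Cdkn1c share their low point, the IgG array at 100 to 200 µm (5.63 and 5.16). For Cdkn1a (range 1.05) they were 2410018G20Rik (0.99), Coa7 (0.99), an assembly factor of respiratory complex IV, and 2700062C07Rik (0.98), out of 4651 genes. Coa7 stood at 4.94, 4.61 and 4.48 with B29, against 5.43, 4.70 and 4.88 with IgG, lower with B29 in each class. The level of 4.48 lay under the lowest detected level of that array (4.54), and Coa7 was picked for its likeness to Cdkn1a. These values of r describe 6 arrays that share their scaling, and each gene was picked as the highest of many.

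The rest of the pathway was read from 6 lists of genes, whose counts of genes higher or lower with B29 in all 3 classes stand against 12.6% and 13% of all tested genes. Among the retinoblastoma and E2F genes, 9 of 13 were tested, and 0 passed B29 against IgG in either direction; Rb1, the retinoblastoma gene, had a fitted ratio of -0.25 (SE 0.13) and a negative ratio in each class (-0.44, -0.12 and -0.20). Its relative Rbl1 stood at -0.26, E2f1 at 0.01 and E2f2 at 0.10. In all 3 classes 1 of the 9 was higher and 2 were lower. Of 16 other cyclins, kinases and inhibitors of the growth phase and DNA synthesis, 11 were tested and 0 passed, with 1 higher and 2 lower in all 3 classes. The higher one was Cdk2, the kinase that acts after Cdk4 (0.40, 0.62 and 0.67, fitted 0.56, SE 0.13, limma adjusted p = 0.966). Cdkn2b, an INK4 inhibitor, was one of the lower ones (-0.08, -0.28 and -0.07, fitted -0.14), and Cdk1 (-0.03) and Cdkn2d (0.04) had fitted ratios near 0.

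Of 18 S phase and mitosis genes, 14 were tested and 0 passed; Mki67, the Ki-67 antigen of cycling cells, had a fitted ratio of 0.29 (SE 0.14), Top2a 0.14, Pcna 0.11 and Mcm2 0.22 with class ratios of 0.70, -0.42 and 0.39. The median over the list was 0.08, 0.12 and 0.05 in order of islet size, and 2 of the 14 were higher and 1 lower in all 3 classes. The higher ones were Mki67 and Birc5 (fitted 0.12). The lower one was Tyms, which had the lowest fitted ratio of the 14 (-0.43, SE 0.15). Of 15 p53 targets, 10 were tested and 0 passed, with Mdm2 at -0.00, Ccng1 at 0.01, Gadd45a at -0.10 and Bbc3 at -0.25. In all 3 classes 2 of the 10 were higher with B29 and 1 was lower, shares near those of all tested genes. The higher ones were Sesn2 (fitted 0.32, SE 0.13) and Phlda3 (0.19), and the lower one was Bbc3. The median of the 10 ran from -0.13 under 100 µm to 0.21 over 200 µm.

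Of 19 regulators of D cyclins and inhibitors in islets, 14 were tested, and 1 passed, downward. In all 3 classes 1 of the 14 was higher and 5 were lower with B29, and 9 of the 14 were lower over 200 than under 100 µm with both antibodies, against 24.9% of tested genes. The gene that passed was Cish, a STAT5 target gene named here after its value was seen (fitted ratio -1.54, SE 0.14, limma adjusted p = 0.0485). It is 1 of the 5 lower genes, and the lists were chosen with earlier results of these data known. No probe was called with median centring, cyclic loess or other background corrections, among other alternatives. The chromatin regulators Men1 (-0.06), Ezh2 (-0.13), Bmi1 (-0.08) and Kmt2a (0.13), which act on the Cdkn2a and CIP/KIP loci, did not pass. Of 12 imprinted growth genes, to which Cdkn1c belongs by its imprinting, 7 were tested, 0 passed and 0 had the same sign in all 3 classes, with Igf2 at 0.02, Slc22a18, a neighbour of Cdkn1c in the same imprinted cluster, at 0.14, Mest at 0.12 and Peg3 at 0.26 with class ratios of 1.21, -0.59 and 0.15. Between over 200 and under 100 µm, 0 tested genes of the 6 lists passed in either direction.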

How the data were processed

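Total RNA was extracted from islets with Trizol and RNeasy columns and labelled for Illumina bead arrays, per the labels' protocols. The deposited raw table holds, for each probe on each array, an intensity and a detection p-value. The authors' value table gives log2 values; the submitters' processing notes name limma 3.34.9, and neqc of limma 3.58.1 in R 4.3.3, run on the raw table with an offset of 16, differed from it by at most 0.00037. Of 46255 raw rows, 974 were control rows, and 22 held text where a signal belongs and were left out. Gene names came from the platform's probe table, updated through RefSeq (GRCm38.p6): 35784 probes had 1 symbol and 9497 had none. A gene with several probes is represented by its brightest probe on average unless another is named.

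Differences were tested with 1 limma fit (lmFit and eBayes) over all 16774 tested probes, with antibody and diameter class as additive factors (residual degrees of freedom 2, prior 6.60), with Benjamini-Hochberg adjustment over all of them. Within a class no test was possible, and a line of 1.5-fold was used. The number of arrays limits the precision. The named genes are the members, the first 4 tested genes of each list, and the 3 genes most like each of the 2 members of widest range. Cish, Birc5, Tyms, Sesn2 and Phlda3 were added after their values were seen. Members, lists and tests were chosen with earlier results of these data known. The fit was tested on simulated data, in which the share of false calls was above the nominal level and most changes at the smallest simulated size were missed for islet size. Alternatives were other scalings, background corrections, filters, probes and eBayes settings, and arrays left out.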

Additional observations from a re-analysis of the deposited data

Results flagged for a closer look

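The ratio of B29 over IgG had opposite signs in 2 diameter classes, at least 1.5-fold apart, on 4 of the 16 tested probes, of 3 member genes. Each value rests on 1 array per group, and the difference was not tested. The share of all tested probes that meet this rule was not counted, so the number is not a result about the members. For the brightest Ccnd2 probe the log2 ratio was 0.09 over 200 µm and -0.68 at 100 to 200 µm, a difference of 0.77. With median centring both were negative (-0.29 and -0.57), and the difference was 0.28. For the second Ccnd2 probe the ratio of 0.60 over 200 µm was 0.94 above that under 100 µm (-0.34) and 1.16 above that at 100 to 200 µm (-0.56). With median centring these differences were 0.49, under the 1.5-fold line, and 0.68. For the brightest Cdk4 probe the ratio was -0.02 over 200 µm and 0.58 under 100 µm, a difference of -0.60. That difference was -0.43 without background correction and -0.47 with normexp, both under the 1.5-fold line, and -0.97 with median centring. For Cdkn1c the ratio was -0.07 over 200 µm and 0.67 at 100 to 200 µm, a difference of -0.75. That difference was -0.33 without background correction and -0.40 with normexp, also under that line, and -1.06 with median centring. The acinar median was 6.66 with B29 and 10.2 with IgG over 200 µm; its part in these differences was not tested.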

How the results depend on the processing

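No member gene was called under any alternative run, for B29 over IgG or for over 200 against under 100 µm. Median centring moved the median gene's B29 ratio to 0.05, 0.07 and -0.14 in order of islet size, and that of 100 to 200 against under 100 µm to 0.19. With it, 0 members were higher and 2 (Ccnd2 and Cdkn1a) lower with B29 in all 3 classes. The matching shares of all tested genes were not counted with this scaling. Among class ratios of the brightest probes, median centring also turned the sign of Ccnd2 (-0.29) and Cdkn2c (-0.11) over 200 µm and of Ccnd1 (0.04) and Cdkn2c (0.01) at 100 to 200 µm. Signs of fitted ratios turned as follows. For B29 over IgG, Ccnd1 was -0.0185 on probe 3, Ccnd3 -0.21 (not above background with B29) and Cdk4 -0.11 on their second probes, and Cdkn2a -0.0082 with cyclic loess and -0.0042 with median centring. For over 200 against under 100 µm, Ccnd1 was -0.18 and -0.21 on its other probes and Cdkn2a 0.0303 with median centring. Ccnd3 was -0.076 on its second probe (not above background with B29). Leaving out a pair of arrays, B29 over IgG ran from 0.0623 to 0.36 for Cdk4, from -0.0686 to 0.11 for Ccnd1, from -0.10 to 0.0723 for Cdkn2a and from -0.0039 to 0.19 for Cdkn2c. Leaving out an array, over 200 against under 100 µm ran from -0.0505 to 0.31 for Ccnd1, from -0.12 to 0.54 for Ccnd2, from -0.17 to 0.15 for Cdkn2a and from -0.0656 to 0.25 for Cdkn2c. Cdkn1a stayed negative under all alternatives run (B29 over IgG -0.44 to -0.11, size -0.68 to -0.26).

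Over all probes, the 1 call for B29 over IgG became 0 with cyclic loess, median centring, no background correction, normexp, no filter, 1 probe per gene or the class factor left out, and 0 to 3 with a pair left out (3 without the pair over 200 µm). The 89 calls for over 200 against under 100 µm became 5 with median centring, 0 with no or normexp background or no filter, 57 with probes detected on all 6 arrays, 49 with 1 probe per gene, and 0 to 224 with an array left out (0 without the B29 and 5 without the IgG array under 100 µm, 224 without the IgG array over 200 µm). The 14 for 100 to 200 against under 100 µm became 0 with median centring, no or normexp background or no filter, 1 with probes detected on all 6 arrays, 61 with a trended and robust eBayes, 31 without the antibody factor, and 0 to 141 with an array left out (141 without either array over 200 µm, 0 or 1 without any other). The 0 for over 200 against 100 to 200 µm became 0 to 61 with an array left out (61 without the IgG array over 200 µm, 3 without that at 100 to 200 µm). Probes at least 1.5-fold apart numbered 1023, 623 and 982 in order of islet size; they became 242, 156 and 292 without background correction, 317, 211 and 378 with normexp, 1616 over 200 µm with median centring, and 96, 98 and 145 at 2-fold. The causes were not tested. B29 and IgG were paired by diameter class in the fit itself; the labels give no other pairing.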
